A study of Mus musculus with 50 samples.

Results

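The 10 genes described here are antiviral effector genes that interferons switch on, known as interferon-stimulated genes: Ifit1, Ifit2, Ifit3, Isg15, Usp18, Rsad2, Rtp4, Bst2, Oasl2 and Mx2. They were chosen by symbol from the 39056 gene entries of a count table, and all 10 passed the filter on low counts that left 16460 genes for testing. RNA was sequenced from mouse oligodendrocytes in culture, the cells that make myelin, in 50 libraries. The 20 groups combined genotype, treatment and hours of treatment. The 10 Nrf2-/- groups had 3 libraries each and the 10 wild-type (WT) groups had 2 each. Nrf2, the product of Nfe2l2, is a transcription factor that switches on antioxidant genes.

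Both genotypes were of the C57BL/6 strain, and the labels describe the mutant as a homozygous null. In both, progenitor cells were immunopanned from the cortices of pups aged 6 days, passaged 2 times, and left to differentiate for 12 to 14 h before plates were assigned to a treatment at random, per the labels. Interferon-γ (IFN-γ), a cytokine of T cells and natural killer cells, was given at 200 U/ml for 1, 8, 24 or 48 h. Thapsigargin, which blocks the calcium pump of the endoplasmic reticulum and so causes stress there, was given for 1 or 8 h at a dose labelled as 200 µM. Untreated cells were collected at 1, 8, 24 and 48 h. The tissue label reads whole brain although the growth protocol names cortex. The labels do not state separate cultures or litters, so the p-values reflect only how these libraries vary among themselves, and that variation may be technical. In such bulk samples, fewer expressing cells and less RNA per cell cannot be told apart.

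Interferons act through receptors that activate JAK kinases, which phosphorylate STAT proteins. The main early response to IFN-γ runs through a DNA motif called GAS. Type I interferons, and the IRF proteins made after either signal, act through another motif called ISRE, which is found before many antiviral genes. Many proteins of such genes act in the cell or at its surface against viral RNA, viral protein synthesis or virus release. In the brain, glial cells meet IFN-γ during infection and in inflammation that damages myelin.

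Library totals lay between 32252272 and 54657205 counts. Levels are in CPM, the usual scaling of counts to one common library total, on library sizes scaled with TMM, a normalisation that sets the bulk of genes level between libraries. Nfe2l2 lay between 0.0970 and 0.859 CPM in 29 of 30 Nrf2-/- libraries, against 5.12 to 70.4 CPM in WT libraries. The exception was the library labelled Nrf2-/- untreated at 8 h, replicate 3, at 7.62 CPM. That level lies near the low end of the WT range, which covers all treatments and hours, and goes against its label. Without that library, 9 of the 10 genes were again called for IFN-γ and 3 for thapsigargin at 8 h in Nrf2-/- cells. For the genotype difference in either response 0 were called. With all libraries, 30.7% of all tested genes were called for IFN-γ, 60.0% for thapsigargin and 0.0% for either genotype difference. With 1 library left out, 4386 to 4658 genes were called for IFN-γ and 9176 to 9392 for thapsigargin. For 3 libraries, replicate 2 of each Nrf2-/- group at 8 h, the title says mutant and the genotype tag says wild type, and their Nfe2l2 levels were low. Results at 8 h that change without them are given with and without. Oligodendrocyte lineage markers, 12 of 12 tested, summed to between 3922 and 39849 CPM. Microglia and macrophage markers summed to between 8.48 and 33.5 CPM, with 2 of 12 tested and Aif1, C1qa and C1qb at 0 in all libraries.

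Promoter windows of 300 bases, from 250 before to 50 after the start, were held in RefSeq for 7 of the genes (build GRCm38.p6). Stretches of 110 bases from 5 of them are shown because they hold the ISRE letters, written in capitals; in Bst2 the capitals also cover the GAS letters. They lie at chr19:34640754-34640863 on the plus strand for Ifit1, at chr19:34583357-34583466 on the plus strand for Ifit3, at chr4:156200825-156200934 on the minus strand for Isg15, at chr12:26456513-26456622 on the minus strand for Rsad2 and at chr8:71537537-71537646 on the minus strand for Bst2.
Ifit1: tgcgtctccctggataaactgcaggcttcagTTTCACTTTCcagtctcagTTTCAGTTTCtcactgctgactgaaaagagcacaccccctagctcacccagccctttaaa
Ifit3: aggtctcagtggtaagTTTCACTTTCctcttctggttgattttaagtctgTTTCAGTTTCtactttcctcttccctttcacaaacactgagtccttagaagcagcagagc
Isg15: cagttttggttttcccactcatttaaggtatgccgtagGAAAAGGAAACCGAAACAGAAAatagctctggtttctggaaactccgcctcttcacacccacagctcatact
Rsad2: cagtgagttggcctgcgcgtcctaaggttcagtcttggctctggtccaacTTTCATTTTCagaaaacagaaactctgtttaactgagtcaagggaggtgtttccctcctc
Bst2: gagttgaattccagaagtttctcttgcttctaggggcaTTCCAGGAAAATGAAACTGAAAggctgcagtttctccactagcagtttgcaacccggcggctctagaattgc

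The ISRE was searched as GAAANNGAAA or its reverse complement TTTCNNTTTC on either strand, and it occurred in 5 of the 7 windows. Among all 27025 genes with a window, 3.99% held it. Ifit1 and Ifit3 each had 2 separate matches, Rsad2 had 1, and Isg15 had 3 that overlapped one another. In bases from the start they lay at -104 to -95 and -85 to -76 in Ifit1, -156 to -147 and -122 to -113 in Ifit3, -120 to -111 in Rsad2, -78 to -57 in Isg15 and -130 to -115 in Bst2. The GAS motif was searched as TTCNNNGAA, which reads the same on both strands. It occurred in Bst2, where it overlapped the first of 2 overlapping ISRE matches, and in Ifit2 at -241 to -233; 9.55% of all genes held it. Neither set of letters was in the Oasl2 window. A match describes the sequence and shows no binding.

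**Figure D1:**
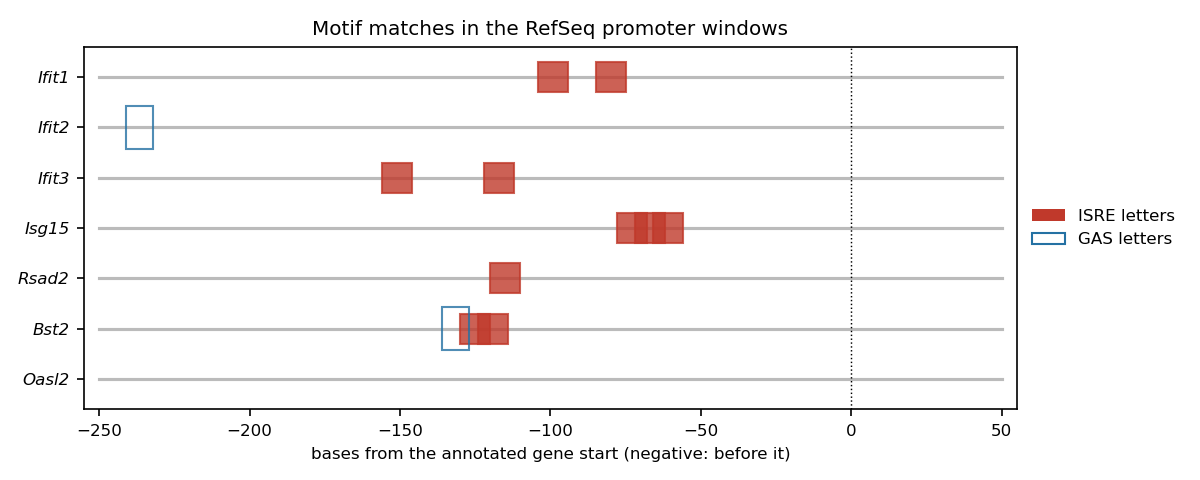
Motif matches in the 7 RefSeq promoter windows, by distance in bases from the annotated start (x axis, negative before it); filled boxes are ISRE letters and open boxes GAS letters. Matches to the ISRE lie in 5 windows and matches to the GAS in those of Ifit2 and Bst2.

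After 8 h of IFN-γ 9 of the 10 genes were far above their near-silent or low untreated level in both genotypes. A gene was called when edgeR's quasi-likelihood test gave a Benjamini-Hochberg adjusted p below 0.05 over all tested genes. Mx2 was the gene not called at 8 h. All 9 were higher in Nrf2-/- cells, where 30.7% of all tested genes were called in either direction, and all 9 were higher in WT cells, where 26.4% were. The median log2 fold over the 10 genes was 8.45 in Nrf2-/- and 8.38 in WT cells, against a median of -0.02 over all tested genes in each genotype. With genes that had 0 untreated counts set at their lower bound, and those with 1 to 3 at their ratio, the medians were 8.45 in Nrf2-/- and 7.89 in WT cells. Leaving out the 3 libraries with conflicting labels again gave 9 in each genotype.

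**Figure D2:**
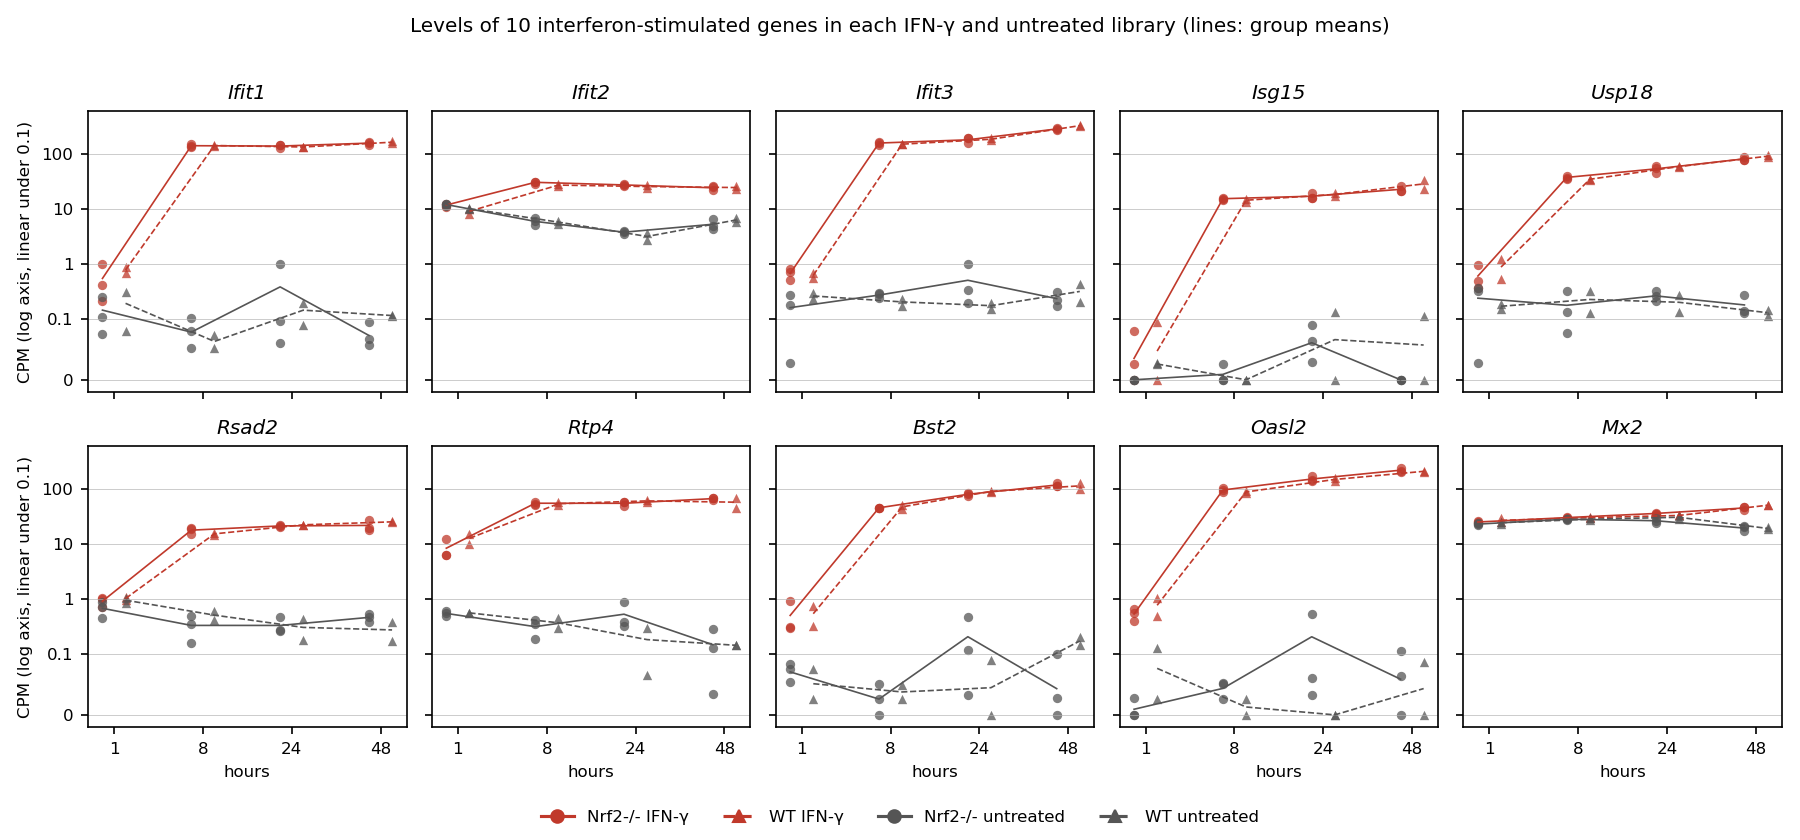
CPM (y axis, log scale, linear under 0.1) of the 10 genes by hour (x axis) in IFN-γ-treated and untreated libraries; points are libraries, with Nrf2-/- as circles and WT as triangles, and lines join group means. From 8 h on, treated libraries of 9 genes lie far above untreated ones, while Mx2 separates clearly at 48 h.

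The IFIT proteins bind viral RNA and hinder its translation. Their genes lie near one another on chromosome 19 (GRCm38, GENCODE M21), with Ifit2 at chr19:34550694-34576419, Ifit3 at chr19:34583531-34588731 and Ifit1 at chr19:34640871-34650009, all on the plus strand. Ifit1 recognises RNA whose cap lacks a methyl group that host messages carry. After 8 h of IFN-γ, Ifit1 had 140, 134 and 150 CPM in Nrf2-/- cells and 145 and 140 CPM in WT cells, against 0.0798, 0.102 and 0.0526 CPM in untreated Nrf2-/- cells and 0.0518 and 0.0738 CPM in untreated WT cells. All treated libraries lay far above all untreated ones, and the genotypes overlapped. The log2 fold was 10.75 ± 0.37 (SE, adjusted p = 4.43e-22) in Nrf2-/- and 11.06 ± 0.46 (adjusted p = 1.61e-19) in WT cells by edgeR. These folds rest on 9 and 5 untreated counts per group, whose counting error alone exceeds the SE given. With kallisto counts the log2 fold of Ifit1 was 9.08 in Nrf2-/- and 9.03 in WT cells. Ifit1 then stayed near its 8 h level, with 127, 145 and 146 CPM in Nrf2-/- and 131 and 137 CPM in WT cells at 24 h, and 148, 157 and 167 CPM in Nrf2-/- and 158 and 169 CPM in WT cells at 48 h.

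Ifit3 is a partner that stabilises IFIT1 in human cells. At 8 h of IFN-γ it had 160, 147 and 167 CPM in Nrf2-/- and 150 and 151 CPM in WT cells, against 0.293, 0.280 and 0.236 CPM in untreated Nrf2-/- and 0.233 and 0.172 CPM in untreated WT cells. The groups did not overlap, and the log2 folds were 9.17 ± 0.23 (SE) in Nrf2-/- and 9.52 ± 0.29 in WT cells by edgeR, with adjusted p of 6.34e-27 and 4.39e-24. Ifit3 kept climbing, to 281, 271 and 303 CPM in Nrf2-/- and 332 and 323 CPM in WT cells at 48 h. The 48 h mean was 1.81 times the 8 h mean in Nrf2-/- and 2.17 times in WT cells. Ifit3 has a near-identical copy, Ifit3b, so how reads were split between the pair is uncertain. Kallisto, which assigns reads to transcripts, gave 1.17 times the featureCounts counts for Ifit3 over the 15 IFN-γ libraries of 8 to 48 h.

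Ifit2 differed from its neighbours in having a clear level before treatment. At 8 h it had 31.4, 28.5 and 31.5 CPM in Nrf2-/- and 25.6 and 28.6 CPM in WT cells with IFN-γ, against 6.73, 5.94 and 5.10 CPM in untreated Nrf2-/- and 6.08 and 5.41 CPM in untreated WT cells. The treated libraries were all higher, by a log2 fold of 2.36 ± 0.12 (SE, adjusted p = 1.22e-19) in Nrf2-/- and 2.24 ± 0.15 (adjusted p = 6.93e-16) in WT cells by edgeR. The treated level then declined, to 25.6, 21.8 and 25.3 CPM in Nrf2-/- and 26.1 and 22.8 CPM in WT cells at 48 h.

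Isg15 is a ubiquitin-like protein that is attached to other proteins, and Usp18 is the enzyme that removes it and a brake on the type I interferon receptor. Isg15 (chr4:156199424-156200818, minus strand) had 15.2, 16.1 and 14.7 CPM in Nrf2-/- and 15.4 and 13.3 CPM in WT cells after 8 h of IFN-γ. Untreated cells at 8 h held 1 Isg15 count over the 3 Nrf2-/- libraries and 0 over the 2 WT libraries, where 0 counts allow up to 0.0378 CPM. Against that limit the WT level was at least 375.8-fold higher. In Nrf2-/- cells the ratio was 1769, with a 95% interval of 317 to 69840 that covers the counting error of the untreated group only. The Isg15 level reached 21.2, 20.7 and 26.2 CPM in Nrf2-/- and 34.2 and 22.9 CPM in WT cells at 48 h. Over all 20 untreated libraries Isg15 had 17 counts by featureCounts, whereas kallisto estimated 179 counts, so its untreated level depends on the counting method. With kallisto counts the log2 fold of Isg15 at 8 h was 6.01 in Nrf2-/- and 6.25 in WT cells.

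Usp18 (chr6:121245906-121270917, plus strand) had 37.2, 34.9 and 39.99 CPM in Nrf2-/- and 33.6 and 35.6 CPM in WT cells after 8 h of IFN-γ, against 0.319, 0.0764 and 0.131 CPM in untreated Nrf2-/- and 0.129 and 0.320 CPM in untreated WT cells. The log2 folds were 7.72 ± 0.28 (SE, adjusted p = 9.05e-23) in Nrf2-/- and 7.23 ± 0.33 (adjusted p = 1.39e-19) in WT cells by edgeR. Over all 20 untreated libraries Usp18 had 143 counts by featureCounts and 568.5 estimated counts by kallisto, and with kallisto counts its log2 folds at 8 h were 5.72 in Nrf2-/- and 5.57 in WT cells. The highest untreated library weighed on both featureCounts folds: they were 8.45 without untreated Nrf2-/- replicate 1 and 8.02 without untreated WT replicate 2. At 48 h Usp18 stood at 79.0, 77.6 and 87.7 CPM in Nrf2-/- and 94.7 and 87.1 CPM in WT cells. An antisense noncoding gene, Gm44148, overlaps Usp18 and held 831 counts over all libraries; the strand setting of the counting is not given in the sources used here, so reads of such a pair cannot be told apart.

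The enzymes that attach Isg15 were taken from a list of 4: Uba7 activates it, Ube2l6 carries it, and Herc6 and Trim25 are ligases. All 4 were higher at 8, 24 and 48 h of IFN-γ in both genotypes. Between 13.7% and 22.8% of all tested genes were called higher in these comparisons. At 8 h Uba7 averaged 85.1 ± 5.35 CPM in Nrf2-/- and 86.2 ± 1.89 CPM in WT cells with IFN-γ (SD, n = 3 and 2), against 0.121 ± 0.051 CPM in untreated Nrf2-/- and 0.227 ± 0.008 CPM in untreated WT cells. The smallest log2 folds of the list at 8 h were those of Trim25, at 3.36 ± 0.17 (SE) in Nrf2-/- and 3.34 ± 0.21 in WT cells by edgeR. At 1 h 2 of the 4 were called in each genotype, namely Uba7 and Trim25. Of all tested genes 2.21% were called in Nrf2-/- and 2.1% in WT cells at that hour.

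Rsad2, also called viperin, is a radical SAM enzyme that makes a chain-ending nucleotide. It had 15.4, 19.2 and 18.9 CPM in Nrf2-/- and 16.03 and 14.5 CPM in WT cells at 8 h of IFN-γ, against 0.346, 0.484 and 0.158 CPM in untreated Nrf2-/- and 0.595 and 0.418 CPM in untreated WT cells. The log2 folds were 5.74 ± 0.27 (SE, adjusted p = 3.32e-20) in Nrf2-/- and 4.91 ± 0.32 (adjusted p = 5.06e-16) in WT cells by edgeR, with no overlap of treated and untreated libraries. At 48 h Rsad2 stood at 19.8, 27.3 and 18.2 CPM in Nrf2-/- and 25.7 and 24.9 CPM in WT cells. The gene lies at chr12:26442746-26456452 on the minus strand.

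Oasl2, related to the enzymes that make a signal for RNA decay, has synthetase activity of its own in mouse. At 8 h of IFN-γ Oasl2 had 89.4, 103 and 95.6 CPM in Nrf2-/- and 90.7 and 86.2 CPM in WT cells, against 5 counts in all untreated Nrf2-/- and 1 count in all untreated WT libraries. The log2 fold in Nrf2-/- cells was 10.999 ± 0.333 (SE, adjusted p = 1.36e-23) by edgeR. With 5 untreated counts the counting error alone exceeds that SE. For WT cells the ratio was 6991, with a 95% interval of 1254 to 275900 from the untreated count alone. With kallisto counts the log2 fold of Oasl2 was 8.97 in Nrf2-/- and 9.89 in WT cells. Oasl2 reached 208, 215 and 239 CPM in Nrf2-/- and 214 and 206 CPM in WT cells at 48 h. It lies at chr5:114896936-114912234 on the plus strand.

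Bst2, or tetherin, holds budding virus at the cell surface. Bst2 (chr8:71534255-71537456, minus strand) had 45.98, 45.1 and 45.6 CPM in Nrf2-/- and 43.8 and 50.9 CPM in WT cells after 8 h of IFN-γ, against 3 counts over the untreated group of each genotype. The ratio was 1745 in Nrf2-/- cells (95% interval 597 to 8457) and 1267 in WT cells (95% interval 433 to 6142). At 48 h Bst2 stood at 113, 126 and 116 CPM in Nrf2-/- and 100.6 and 128 CPM in WT cells, a mean 2.60 times that at 8 h in Nrf2-/- and 2.41 times in WT cells. No treated library overlapped an untreated one from 8 h on.

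Rtp4, a chaperone for receptors on their way to the cell surface that also restricts flaviviruses, was near silent in untreated cells and well above that by 1 h, as given further on. Rtp4 (chr16:23520291-23614222, plus strand) had 54.3, 52.3 and 58.9 CPM in Nrf2-/- and 57.3 and 50.7 CPM in WT cells at 8 h of IFN-γ, against 0.346, 0.408 and 0.184 CPM in untreated Nrf2-/- and 0.440 and 0.295 CPM in untreated WT cells. The log2 folds were 7.44 ± 0.31 (SE, adjusted p = 4.25e-20) in Nrf2-/- and 7.19 ± 0.37 (adjusted p = 2.66e-17) in WT cells by edgeR. At 48 h the 3 Nrf2-/- libraries lay at 68.0, 68.7 and 64.1 CPM and the 2 WT libraries at 45.4 and 69.8 CPM, so the WT pair spread widely. The span of Rtp4 is overlapped by the antisense gene Masp1 and by Gm45338, with 7767 and 41 counts over all libraries.

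Mx2 encodes a dynamin-like GTPase that is inactive in many laboratory mouse strains. At 8 h it had 30.7, 29.7 and 30.2 CPM in Nrf2-/- cells with IFN-γ, against 28.5, 27.6 and 28.6 CPM untreated. In WT cells at 8 h it had 29.8 and 30.6 CPM with IFN-γ, against 29.1 and 27.4 CPM untreated. All treated libraries were slightly higher at 8 h, but the log2 folds of 0.10 ± 0.08 (SE, adjusted p = 0.375) in Nrf2-/- and 0.10 ± 0.09 (adjusted p = 0.496) in WT cells did not pass edgeR's test. At 48 h Mx2 stood at 47.4, 41.1 and 47.3 CPM in Nrf2-/- and 50.4 and 51.0 CPM in WT cells with IFN-γ, against 19.96, 20.9 and 17.6 CPM in untreated Nrf2-/- and 19.95 and 18.5 CPM in untreated WT cells. The libraries did not overlap, and the log2 folds were 1.22 ± 0.08 (adjusted p = 8.14e-17) in Nrf2-/- and 1.40 ± 0.09 (adjusted p = 9.19e-16) in WT cells by edgeR. Mx2 lies at chr16:97535308-97560900 on the plus strand.

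At 24 h all 10 genes were called higher in Nrf2-/- cells, where 47.3% of all tested genes were called, and 9 were in WT cells, where 43.2% were. Mx2 made the difference in count: it had 35.7, 34.8 and 37.3 CPM with IFN-γ against 26.3, 23.8 and 29.4 CPM untreated in Nrf2-/- cells, and 33.0005 and 33.0241 CPM with IFN-γ against 28.7 and 32.6 CPM untreated in WT cells. Its log2 folds were 0.44 ± 0.08 (SE, adjusted p = 5.10e-06) in Nrf2-/- and 0.11 ± 0.09 (adjusted p = 0.366) in WT cells by edgeR. At 48 h all 10 were called higher in each genotype, with 45.4% of all tested genes called in Nrf2-/- and 43.1% in WT cells. The median log2 fold over the 10 genes at 48 h was 9.52 in Nrf2-/- and 9.11 in WT cells, against -0.01 and -0.02 over all tested genes. With low untreated counts treated as at 8 h they were 9.18 in Nrf2-/- and 9.11 in WT cells.

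One untreated library stood apart at 24 h for some of the genes. Nrf2-/- replicate 2 had 0.986 CPM of Ifit1, 0.986 CPM of Ifit3, 0.870 CPM of Rtp4, 0.464 CPM of Bst2 and 0.522 CPM of Oasl2, each above all other untreated libraries of any hour. These levels were between 0.343% and 1.58% of the level of the same gene in Nrf2-/- cells given IFN-γ for 24 h. In that library Ifit2, Isg15, Usp18, Rsad2 and Mx2 lay within the range of the other untreated libraries. How often a library is the highest over all genes was not counted. The log2 folds of IFN-γ at 24 h in Nrf2-/- cells, by edgeR, were 10.76 ± 0.32 (SE) for Ifit1 without that library and 8.46 ± 0.31 with it. For Oasl2 they were 11.58 ± 0.32 without and 9.47 ± 0.28 with it. For Bst2 they were 9.96 ± 0.35 without and 8.55 ± 0.29 with it, and for Ifit3 9.41 ± 0.22 without and 8.46 ± 0.22 with it. That library held 34 of the 39 untreated Ifit1 counts of its group, 18 of 21 for Oasl2 and 16 of 21 for Bst2. The folds of these genes without that library thus rest on few counts, and their SE can be too small. The folds of Isg15 and Mx2 were lower without it. They were 7.73 ± 0.44 without and 8.06 ± 0.37 with it for Isg15, and 0.37 ± 0.08 and 0.44 ± 0.08 for Mx2. All 10 calls at 24 h held in both cases.

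At 1 h of IFN-γ 4 of the 10 genes were called higher in each genotype, where 2.21% of all tested genes were called in Nrf2-/- and 2.1% in WT cells. Rtp4, one of them in both genotypes, had 6.28, 6.37 and 12.5 CPM in Nrf2-/- and 10.1 and 15.3 CPM in WT cells with IFN-γ, against 0.552, 0.600 and 0.480 CPM in untreated Nrf2-/- and 0.553 and 0.561 CPM in untreated WT cells. Its log2 folds were 3.93 ± 0.31 (SE, adjusted p = 1.73e-11) in Nrf2-/- and 4.49 ± 0.36 (adjusted p = 5.82e-11) in WT cells by edgeR. Rtp4 was then at 12.5% of its highest hourly mean in Nrf2-/- and 20.8% in WT cells.

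Bst2 and Oasl2 were also called at 1 h in both genotypes, at levels near 1 CPM or lower. Bst2 had 0.311, 0.292 and 0.898 CPM in Nrf2-/- and 0.323 and 0.752 CPM in WT cells with IFN-γ, against 0.0829, 0.0750 and 0.0534 CPM in untreated Nrf2-/- and 0.0754 and 0.0267 CPM in untreated WT cells. The Bst2 log2 folds were 2.75 ± 0.64 (SE, adjusted p = 0.00915) in Nrf2-/- and 3.23 ± 0.83 (adjusted p = 0.0261) in WT cells by edgeR. Oasl2 had 0.545, 0.389 and 0.660 CPM in Nrf2-/- and 0.497 and 1.03 CPM in WT cells with IFN-γ, against 0.0276, 0 and 0 CPM in untreated Nrf2-/- and 0.126 and 0.0267 CPM in untreated WT cells. The treated libraries were higher for both genes in both genotypes. The Oasl2 log2 fold in WT cells was 3.197 ± 0.686 (adjusted p = 0.00420) by edgeR, and the ratio in Nrf2-/- cells was 60.0 with a 95% interval of 10.8 to 2370 for the single untreated count.

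These low 1 h calls rested on few counts. The Bst2 call in Nrf2-/- cells was lost without untreated replicate 2, untreated replicate 3 or IFN-γ replicate 3, with adjusted p of 0.0547, 0.0622 and 0.218 by edgeR and a log2 fold of 2.05 in the last case. In WT cells the count of 4 dropped to 2 without untreated replicate 1 and to 1, namely Rtp4, without untreated replicate 2 or without IFN-γ replicate 2. Without untreated WT replicate 1 the log2 folds were 4.63 for Oasl2 and 4.11 for Bst2, and without untreated WT replicate 2 that of Oasl2 was 2.53. Both untreated WT libraries together held 6 Oasl2 and 4 Bst2 counts, so folds over 1 of them rest on fewer still. Without IFN-γ WT replicate 2 the log2 folds were 2.60 for Oasl2, 2.54 for Bst2 and 1.58 for Usp18. The WT call of Bst2 was also lost with no filter on low counts (adjusted p = 0.0665) and that of Usp18 with only the groups compared in the fit (adjusted p = 0.0558), both by edgeR.

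The fourth gene called at 1 h was Ifit3 in Nrf2-/- cells and Usp18 in WT cells. Ifit3 was called in Nrf2-/- cells, at 0.701, 0.511 and 0.792 CPM with IFN-γ against 0.276, 0.175 and 0.0267 CPM untreated, a log2 fold of 2.05 ± 0.41 (SE, adjusted p = 0.00184), or 2.65 ± 0.50 without untreated replicate 1. In WT cells Ifit3 had 0.546 and 0.690 CPM against 0.226 and 0.294 CPM, a log2 fold of 1.23 ± 0.47 (adjusted p = 0.312). Usp18 was called in WT cells, at 0.521 and 1.22 CPM with IFN-γ against 0.151 and 0.187 CPM untreated, a log2 fold of 2.30 ± 0.55 (adjusted p = 0.0115). In Nrf2-/- cells Usp18 had 0.363, 0.486 and 0.951 CPM against 0.359, 0.325 and 0.0267 CPM, a log2 fold of 1.32 ± 0.44 (adjusted p = 0.162). These adjusted p are edgeR's; DESeq2 called Usp18 in Nrf2-/- cells too, at 1.33 ± 0.35 (adjusted p = 0.00761). The difference between genotypes in the 1 h response was not called for either gene, as given further on.

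Ifit1, Isg15, Rsad2, Ifit2 and Mx2 were not called at 1 h in either genotype. Ifit1 had 0.208, 0.413 and 1.00 CPM in Nrf2-/- and 0.670 and 0.878 CPM in WT cells with IFN-γ, against 0.249, 0.0750 and 0.107 CPM in untreated Nrf2-/- and 0.302 and 0.0801 CPM in untreated WT cells. The Nrf2-/- groups overlapped and the WT groups did not. Isg15 held 0 to 3 counts in each 1 h library with IFN-γ. Ifit2 at 1 h lay between 7.93 and 12.3 CPM with IFN-γ and between 9.98 and 12.4 CPM untreated, so its ranges overlapped.

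**Figure D3:**
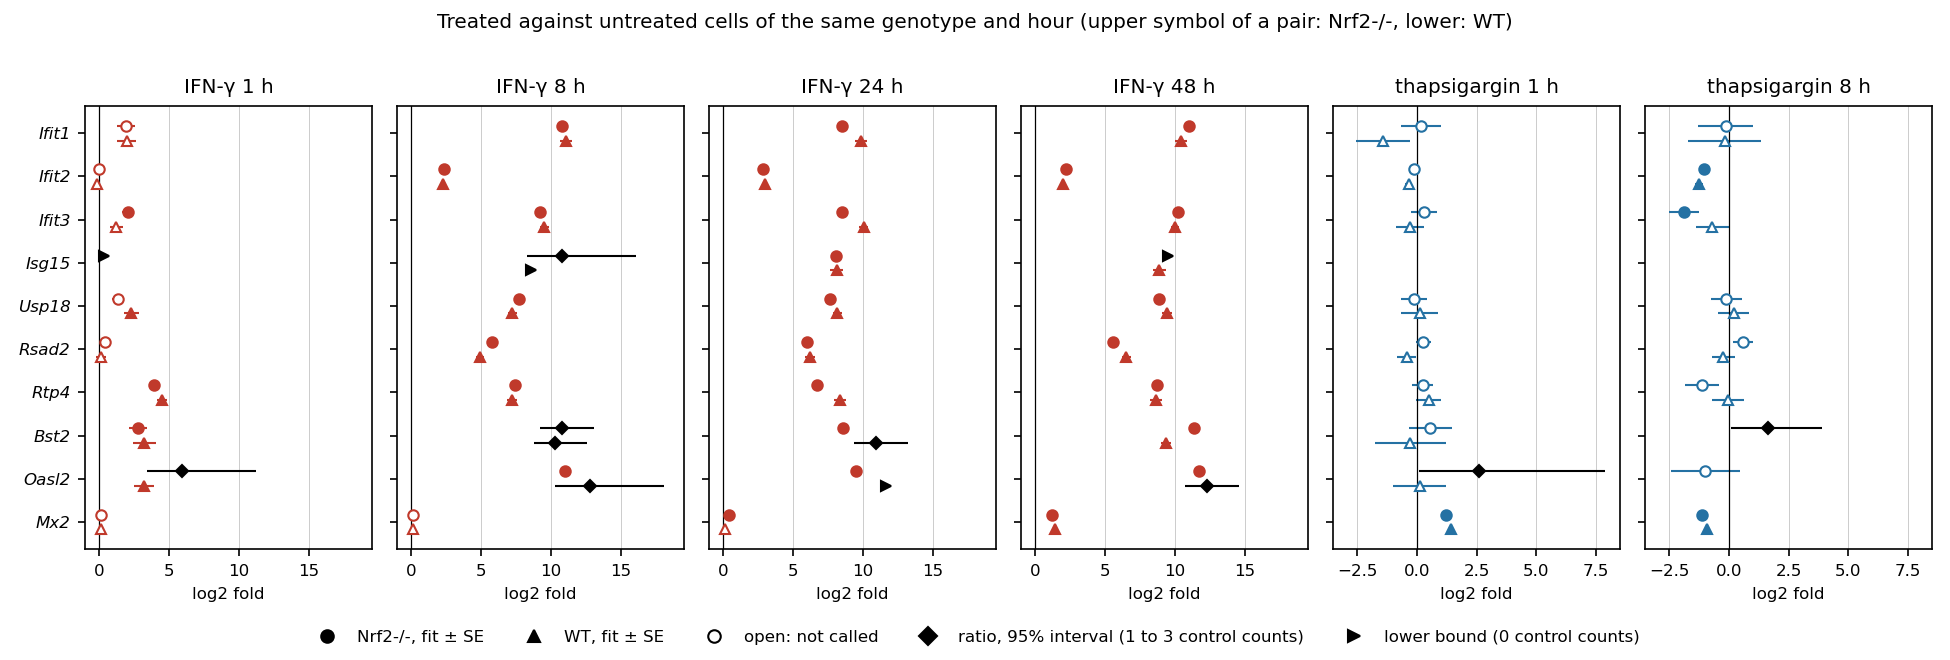
Log2 fold of treated over untreated cells of the same genotype and hour (x axis) for each gene (rows), in a panel for each hour of IFN-γ and of thapsigargin. Circles (Nrf2-/-) and triangles (WT) are fitted folds with SE, open where not called; black diamonds are ratios with a 95% interval for 1 to 3 untreated counts, and black right-pointing triangles lower bounds for 0 untreated counts. Rtp4 stands out at 1 h of IFN-γ and Mx2 is the gene moved by thapsigargin at both hours.

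The response at 8 h exceeded that at 1 h for 8 of the 10 genes, with genotypes averaged, while 24.1% of all tested genes were called in that comparison. The exceptions were Mx2, at a difference in log2 fold of -0.04 ± 0.08 (SE, adjusted p = 0.840 by edgeR), and Isg15, for which untreated groups at 0 counts gave no usable error by edgeR. DESeq2 called 9 of the 10 in this comparison. From 8 to 24 h 1 gene, Ifit2, was called, against 32.9% of all tested genes: its response grew by 0.63 ± 0.14 on the log2 scale (adjusted p = 0.000322). Untreated Ifit2 at 24 h had 3.48, 4.00 and 3.81 CPM in Nrf2-/- and 3.57 and 2.73 CPM in WT cells, all under the 8 h libraries. That count of 1 was 2 or 3 when any one of 7 libraries was left out, among them 3 without untreated Nrf2-/- replicate 3 at 24 h and 2 without the library at 8 h whose Nfe2l2 level goes against its label, and 4 with DESeq2. From 24 to 48 h 2 genes were called, against 42.9% of all tested genes. The Mx2 response grew by 1.04 ± 0.08 (adjusted p = 5.41e-13) and the Ifit2 response fell by 0.85 ± 0.14 (adjusted p = 3.14e-06). Treated Ifit2 lay between 21.8 and 26.1 CPM at 48 h and between 24.2 and 28.1 CPM at 24 h, which overlap, whereas untreated Ifit2 lay between 4.37 and 6.76 CPM at 48 h and between 2.73 and 4.00 CPM at 24 h, which do not. The count was 4 without untreated Nrf2-/- replicate 1 at 24 h and 6 with DESeq2.

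Those contrasts carry the error of untreated counts near 0. The treated cells were therefore also compared with one another, a comparison added after seeing the data. From 8 to 48 h of IFN-γ 8 of the 10 genes were called, 7 higher and 1 lower, where 53.4% of all tested genes were called. The higher ones were Bst2, Usp18, Oasl2, Ifit3, Isg15, Mx2 and Rsad2. Their log2 differences between 48 and 8 h were 1.32 ± 0.13 (SE) for Bst2, 1.26 ± 0.12 for Usp18, 1.22 ± 0.12 for Oasl2, 0.99 ± 0.11 for Ifit3, 0.78 ± 0.15 for Isg15, 0.67 ± 0.06 for Mx2 and 0.51 ± 0.14 for Rsad2. Ifit2 fell by 0.24 ± 0.09 (adjusted p = 0.0199 by edgeR). Ifit1 at 0.18 ± 0.14 (adjusted p = 0.315) and Rtp4 at 0.19 ± 0.15 (adjusted p = 0.303) were not called.

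In treated cells the hour of the highest mean differed among the genes. Ifit2 was highest at 8 h in both genotypes. Ifit1 was already at 89.8% of its 48 h mean by 8 h in Nrf2-/- cells and at 87.1% in WT cells. Usp18, Bst2 and Oasl2 were between 38.1% and 45.9% of their highest mean at 8 h, and between 64.7% and 79.4% at 24 h. Rtp4 was highest at 48 h in Nrf2-/- and at 24 h in WT cells, where the 24 and 48 h libraries overlapped.

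**Figure D4:**
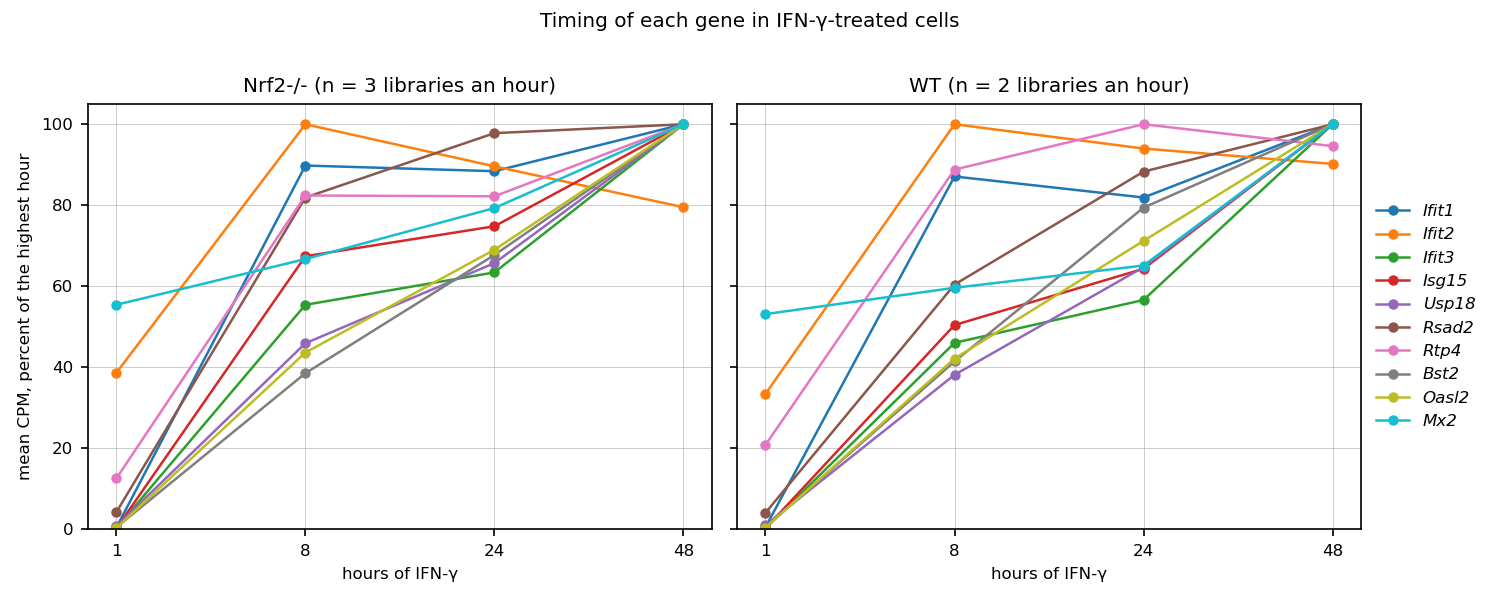
Mean CPM of each gene in IFN-γ-treated cells as percent of its highest hourly mean (y axis) by hours of IFN-γ (x axis), for Nrf2-/- (left, n = 3 libraries an hour) and WT (right, n = 2). Ifit2 is highest at 8 h and lower later; Bst2, Usp18 and Oasl2 lie between 38.1 and 45.9 percent at 8 h and are highest at 48 h.

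Per kilobase of exon, the order at 48 h of IFN-γ over the 5 libraries of both genotypes was led by Ifit3 at a mean of 173 CPM per kb, Bst2 at 129 and Ifit1 at 60.2. Oasl2 at 33.9, Isg15 at 33.1, Usp18 at 30.5 and Rtp4 at 29.7 CPM per kb followed, and neighbours in this stretch overlapped over libraries. Mx2 at 13.1, Ifit2 at 6.19 and Rsad2 at 5.35 CPM per kb were lowest, with Ifit2 and Rsad2 overlapping. At 8 h Ifit3 led at 88.8 CPM per kb, and Ifit1 at 53.4 and Bst2 at 51.2 overlapped.

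Thapsigargin, the other agent, moved Mx2 in opposite directions at its 2 hours. At 1 h 1 of the 10 genes was called in each genotype, Mx2, which was higher. Of all tested genes 9.29% were called in Nrf2-/- and 9.03% in WT cells, so the count is near these shares. Mx2 had 54.1, 50.5 and 55.3 CPM in Nrf2-/- and 62.1 and 67.3 CPM in WT cells with thapsigargin, against 22.7, 22.3 and 23.9 CPM in untreated Nrf2-/- and 25.4 and 23.4 CPM in untreated WT cells. All treated libraries were above all untreated ones, by a log2 fold of 1.21 ± 0.08 (SE, adjusted p = 2.11e-15) in Nrf2-/- and 1.41 ± 0.09 (adjusted p = 1.47e-14) in WT cells by edgeR. With IFN-γ at the same hour Mx2 lay between 24.0 and 29.2 CPM.

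At 8 h of thapsigargin Mx2 was lower, at 14.1, 13.1 and 11.5 CPM in Nrf2-/- and 14.5 and 15.6 CPM in WT cells, against the 27.4 to 29.1 CPM of untreated cells. Its log2 folds were -1.13 ± 0.08 (SE, adjusted p = 8.23e-16) in Nrf2-/- and -0.91 ± 0.10 (adjusted p = 1.02e-10) in WT cells by edgeR. Ifit2 was lower too, at 2.62, 2.39 and 3.53 CPM in Nrf2-/- and 2.38 and 2.50 CPM in WT cells, against 6.73, 5.94 and 5.10 CPM in untreated Nrf2-/- and 6.08 and 5.41 CPM in untreated WT cells. Its log2 folds were -1.06 ± 0.14 (adjusted p = 1.29e-08) in Nrf2-/- and -1.23 ± 0.17 (adjusted p = 5.90e-08) in WT cells. In all, 3 genes were called lower in Nrf2-/- cells, where 60.0% of all tested genes were called in either direction and 29.6% lower. In WT cells 2 were called lower, where 55.5% of all tested genes were called and 27.1% lower. These counts are near the shares called lower. DESeq2 called 4 in Nrf2-/- cells, with Rtp4 lower at -1.14 ± 0.52 (adjusted p = 0.0484). Apart from Mx2 and Ifit2, the genes lay at or under 0.595 CPM in untreated cells at 8 h, which limits the detection of a lower level. Oligodendrocyte lineage markers summed to 3922 to 4539 CPM with thapsigargin at 8 h, against 9473 to 10876 CPM untreated, and 9 of 12 were called lower in Nrf2-/- and 8 in WT cells. Astrocyte markers summed to 66.4 to 72.9 CPM against 31.2 to 35.7 CPM, and neuron markers to 61.4 to 68.6 CPM against 40.4 to 46.7 CPM. The part of these markers in the results was not tested.

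**Figure D5:**
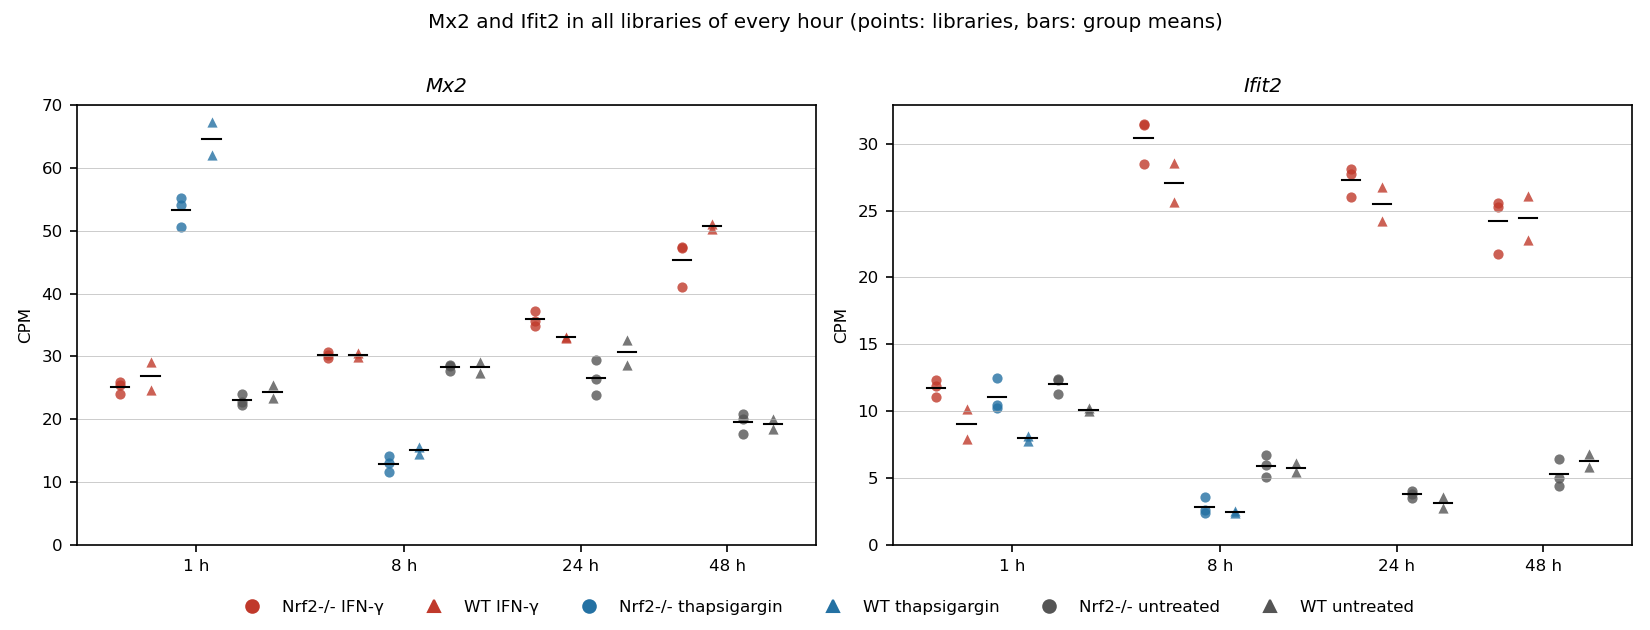
CPM (y axis, from 0) of Mx2 (left) and Ifit2 (right) in all libraries, by hour (x axis); points are libraries, bars are group means, red is IFN-γ, blue thapsigargin and grey untreated, circles are Nrf2-/- and triangles WT. Mx2 lies between 50.5 and 67.3 CPM at 1 h of thapsigargin and between 11.5 and 15.6 CPM at 8 h.

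The third gene lower in Nrf2-/- cells at 8 h was Ifit3, at 0.0874, 0.0582 and 0.0661 CPM with thapsigargin against 0.293, 0.280 and 0.236 CPM untreated. Its log2 fold was -1.88 ± 0.63 (SE, adjusted p = 0.0102 by edgeR), and without the 3 libraries with conflicting labels it was -1.73 ± 0.80 (adjusted p = 0.0685). Without those libraries Rsad2 was called higher instead, at 1.35 ± 0.48 (adjusted p = 0.0181), where the full set gave 0.60 ± 0.42 (adjusted p = 0.221). Rsad2 in Nrf2-/- cells at 8 h of thapsigargin had 0.932, 0.233 and 0.330 CPM, and the middle value is the library with conflicting labels. In WT cells Ifit3 had 0.113 and 0.134 CPM against 0.233 and 0.172 CPM, a log2 fold of -0.69 ± 0.70 (adjusted p = 0.424). The change in the thapsigargin response between 1 and 8 h, a comparison added after seeing the data, was called for 2 of the 10 genes, where 55.9% of all tested genes were called. It was -2.33 ± 0.09 on the log2 scale for Mx2 (adjusted p = 1.62e-24) and -0.92 ± 0.14 for Ifit2 (adjusted p = 8.04e-07).

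No difference between genotypes in a response was called for these genes. For the IFN-γ response at 1, 8, 24 and 48 h and the thapsigargin response at 1 and 8 h, edgeR called 0 of the 10 genes as different between Nrf2-/- and WT cells, and 0.0% of all tested genes in each of the 6 comparisons. DESeq2 also called 0 of the 10 in each. At an unadjusted p below 0.05 edgeR had 5 of the 10 at 24 h of IFN-γ and 0 in the other comparisons, and DESeq2 had 5 at 24 h and 3 at 48 h. The share of all tested genes at that unadjusted cut is not given here. No excess of these genes can therefore be read from the counts. The intervals were wide where untreated counts were few. For Ifit2 the difference in the 8 h response was 0.12 on the log2 scale with a 95% interval of -0.26 to 0.50, and for Mx2 it was 0.00 with an interval of -0.24 to 0.24, whereas for Bst2 it was 0.42 with an interval of -2.67 to 3.52.

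The 5 genes at 24 h were Ifit3, Rtp4, Bst2, Oasl2 and Mx2, with unadjusted p of 0.00667, 0.0346, 0.0396, 0.00323 and 0.00878 and adjusted p of 0.369 or more by edgeR. Without untreated Nrf2-/- replicate 2 the unadjusted p were 0.230 for Ifit3, 0.211 for Rtp4, 0.508 for Bst2, 0.0766 for Oasl2 and 0.0393 for Mx2. For Mx2 the response at 24 h was then larger in Nrf2-/- than in WT cells by 0.26 ± 0.12 on the log2 scale (SE, adjusted p = 0.685).

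Averaged over hours within a treatment, Nrf2-/- and WT cells differed in 1 of these genes. In untreated cells 0 of the 10 were called, with 0 at an unadjusted p below 0.05 by edgeR and 0 called by DESeq2, and 0.0243% of all tested genes were called. With IFN-γ 0 were called, with 1 at an unadjusted p below 0.05, Ifit2 at 0.16 ± 0.06 on the log2 scale (SE, adjusted p = 0.430 by edgeR), and DESeq2 called 0; 0.0547% of all tested genes were called. The 95% intervals under IFN-γ were narrow for several genes, at -0.24 to 0.22 for Ifit3, -0.44 to 0.18 for Ifit1 and -0.12 to 0.05 for Mx2. With thapsigargin 1 was called, Mx2, lower in Nrf2-/- cells by a log2 difference of -0.25 ± 0.06 (adjusted p = 0.0441), where 0.51% of all tested genes were called. That call was lost when the 3 libraries with conflicting labels were left out or counted as WT, with kallisto counts, with only the groups compared in the fit, and without any one of 7 of the 10 thapsigargin libraries.

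In untreated cells 4 of the 10 genes were lower at 48 h than at 1 h. Of all tested genes 68.1% were called in either direction and 33.6% were called lower, so the count is near that share. Rtp4 fell by 1.87 ± 0.50 on the log2 scale (SE, adjusted p = 0.00129 by edgeR), Rsad2 by 1.16 ± 0.30 (adjusted p = 0.000900), Ifit2 by 0.94 ± 0.10 (adjusted p = 4.16e-11) and Mx2 by 0.29 ± 0.06 (adjusted p = 5.29e-05). Ifit2 had 4.97, 4.37 and 6.41 CPM in Nrf2-/- and 6.76 and 5.78 CPM in WT cells at 48 h, against 12.3, 12.4 and 11.3 CPM in Nrf2-/- and 10.2 and 9.98 CPM in WT cells at 1 h, with no overlap. The IFN-γ response of Ifit2 and Mx2 at 48 h was measured against these lower levels. Oligodendrocyte markers were higher in sum at the later hour, at 36660 to 39849 CPM at 48 h and 7620 to 8600 CPM at 1 h in untreated cells, and summed to 18146 to 21994 CPM at 48 h of IFN-γ. Their part in these results was not tested.

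Transcript estimates by kallisto, given as a description, showed 1 main form for most of the genes. At 8 h of IFN-γ Usp18-201 held 96.7% of the estimated Usp18 counts in Nrf2-/- and 96.8% in WT cells, and Rsad2-201, Bst2-201 and Ifit2-201 held between 98.3% and 99.2% of those of their genes in either genotype. Rtp4 was split between Rtp4-203 at 74.0% in Nrf2-/- and 73.7% in WT cells and Rtp4-201 at 20.6% and 20.1%. Oasl2 was split between the coding Oasl2-201 at 54.2% in Nrf2-/- and 54.6% in WT cells and a form annotated as a target of nonsense-mediated decay, at 30.8% and 31.2%. Of the Mx2 estimate 87.9% in Nrf2-/- and 84.7% in WT cells fell on Mx2-202, annotated as a polymorphic pseudogene. In thapsigargin-treated cells that form held between 91.1% and 97.4%, and in untreated cells between 89.1% and 92.1%.

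Most of the other antiviral effectors were also higher from 8 h of IFN-γ on. Of a list of 30, 28 were tested, and at 1 h of IFN-γ 5 were higher in Nrf2-/- and 6 in WT cells. At 8 h 25 were higher in Nrf2-/- and 24 in WT cells, at 24 h 27 and 23, and at 48 h 26 and 25. Over all tested genes 1.7% were called higher in Nrf2-/- and 1.73% in WT cells at 1 h, and 16.1% and 13.7% at 8 h. These shares were 22.6% and 21.7% at 24 h, and 22.8% and 21.1% at 48 h. The list's median log2 fold at 8 h was 4.28 in Nrf2-/- and 4.50 in WT cells, against -0.02 over all tested genes in each. With low untreated counts treated as above it was 4.28 in Nrf2-/- and 3.86 in WT cells. Rnf213, a large ubiquitin ligase, averaged 952 ± 67 CPM in Nrf2-/- and 980 ± 199 CPM in WT cells at 8 h of IFN-γ (SD, n = 3 and 2), against 6.57 ± 0.73 CPM in untreated Nrf2-/- and 5.61 ± 1.58 CPM in untreated WT cells. Among the smallest folds were Tor3a, at 1.68 ± 0.12 (SE) in Nrf2-/- and 1.81 ± 0.14 in WT cells, and Shisa5, at 1.88 ± 0.11 and 1.93 ± 0.13. With thapsigargin at 8 h 4 were higher and 9 lower in Nrf2-/- and 4 higher and 8 lower in WT cells, where 60.0% of all tested genes were called in Nrf2-/- and 55.5% in WT cells.

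Signalling genes upstream of these effectors were also measured. Of 15 receptor, JAK, STAT, IRF and SOCS genes, 9 were higher at 1 h of IFN-γ in each genotype. Over all tested genes 1.7% were called higher in Nrf2-/- and 1.73% in WT cells. Irf1, a transcription factor that binds ISRE-like sequence, averaged 649 ± 99 CPM in Nrf2-/- and 714 ± 64 CPM in WT cells at 1 h (SD, n = 3 and 2), against 23.5 ± 1.14 CPM in untreated Nrf2-/- and 23.1 ± 1.19 CPM in untreated WT cells. At 8 h 11 were higher and 1 lower in Nrf2-/- and 11 higher and 2 lower in WT cells. Of all tested genes, 16.1% were called higher and 14.6% lower in Nrf2-/-, and 13.7% and 12.7% in WT cells. The highest folds of the list were those of Irf7, at 7.88 ± 0.38 (SE) in Nrf2-/- and 8.24 ± 0.49 in WT cells, and the feedback inhibitor Socs1, at 7.68 ± 0.42 and 7.50 ± 0.50. Ifngr1, a subunit of the IFN-γ receptor, fell by 0.25 ± 0.09 in Nrf2-/- and 0.29 ± 0.11 in WT cells. Of 10 interferon genes, type I and III and Ifng, 0 were tested, 8 had 0 counts in all libraries, and their sum was at most 0.0250 CPM in any library.

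By a fixed rule, the 5 genes outside the 10 whose pattern was most like the mean of the 10 over the 20 group means of log2(CPM + 1) were Cmpk2 with Pearson's r of 0.996, Ifit1bl2 with 0.995, Gm6548 with 0.994, Ube2l6 with 0.992 and Eif2ak2 with 0.992. These correlations are descriptions over 20 groups that share libraries of the same treatments. Cmpk2, a mitochondrial nucleotide kinase, averaged 103 ± 11 CPM in Nrf2-/- and 103 ± 7 CPM in WT cells at 8 h of IFN-γ, against 5.58 ± 0.21 CPM in untreated Nrf2-/- and 5.75 ± 0.26 CPM in untreated WT cells. Among the 10, Mx2 had r = 0.535 and Ifit2 r = 0.907 with the mean of which they are part, and the other 8 between 0.957 and 0.993.

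Sums of cell type markers also differed between treatments at 8 h. Oligodendrocyte markers summed to 6811 to 7897 CPM with IFN-γ, against 9473 to 10876 CPM untreated. For astrocyte markers the sum was 72.7 to 92.2 CPM with IFN-γ, against 31.2 to 35.7 CPM untreated, and for neuron markers it was 45.2 to 49.6 CPM against 40.4 to 46.7 CPM, which overlap. Of 7 astrocyte markers tested, 2 were called higher and 1 lower in Nrf2-/- cells and 1 higher and 1 lower in WT cells. Over all tested genes 30.7% were called in Nrf2-/- and 26.4% in WT cells. With so few markers the counts cannot be set apart from these shares. For microglia markers, whose cells respond to interferon themselves, the sum was 19.4 to 21.7 CPM with IFN-γ and 8.48 to 11.4 CPM with thapsigargin, against 15.9 to 19.1 CPM untreated. P2ry12, one of the 2 tested, rose with IFN-γ at 8 h, by a log2 fold of 1.45 ± 0.17 (SE) in Nrf2-/- and 1.31 ± 0.20 in WT cells by edgeR. The median over the 2 tested was 0.74 in Nrf2-/- and 0.67 in WT cells, so the other marker moved less. Sums over all libraries ran from 22.8 to 168 CPM for astrocyte markers, from 25.3 to 68.6 CPM for neuron markers and from 0.571 to 5.59 CPM for endothelial, mural and fibroblast markers, with Cldn5 at 0. The part of these markers and of other cells in the results was not tested.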

How the data were processed

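Total RNA of 50 libraries was sequenced on an Illumina HiSeq, per the labels' protocols. The authors deposited a table of raw gene counts and a table of estimated counts per transcript. STAR, featureCounts, kallisto and edgeR are named in the submitters' processing notes; the sources used here give no build, annotation or strand setting. Symbols, positions and exon lengths were taken from GENCODE M21 (GRCm38), which matched 38872 of 39056 gene entries, and promoter windows from RefSeq (GRCm38.p6). Of the deposited estimated counts, 111887 of 112588 transcripts were assigned to a gene.

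Gene counts were fitted in edgeR 4.0.16 (R 4.3.3, limma 3.58.1) with 1 mean for each of the 20 groups: filterByExpr (minimum count 10, minimum total 15), TMM, robust quasi-likelihood F-tests, two-sided, Benjamini-Hochberg over 16460 genes, called at adjusted p below 0.05. The SE of a fitted log2 fold was not taken from the model. It was set as the absolute log2 fold over the square root of the F statistic. The 95% intervals of fitted differences were built from it. Where untreated counts are few, such an SE is approximate and can misstate the error. For several folds it is smaller than the counting error of the untreated group alone. Of the 27 comparisons, 2 were added after seeing the data. A ratio against 1 to 3 control counts has an exact Poisson interval (95%); against 0 counts, a lower bound was taken at 3 counts over the group. These Poisson intervals and limits cover counting error only. DESeq2 1.42.0 served as an alternative, and tables were made with pandas 2.3.3. The code was checked on simulated data.

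The 10 genes and the lists were chosen with earlier results of these data known. Named besides the 10 are Nfe2l2, up to 2 highest and 2 lowest called genes of each list at 8 h of IFN-γ, the top markers by CPM, the 5 genes of most similar pattern and transcripts with at least 20% of a member's estimate; Irf1, P2ry12 and Rnf213 are top genes by CPM. Results on some genes are not reported here. Replicate numbers follow accession order and pair nothing.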

Additional observations from a re-analysis of the deposited data

Results flagged for a closer look

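The listed values are differences in log2 fold between hours, genotypes averaged, for genes whose response to a treatment differed between hours by edgeR's test of the difference itself. Each group has 2 or 3 libraries, too few to test a single library as an outlier.

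The IFN-γ response at 8 h minus that at 1 h was 8.98 for Ifit1 (SE 0.92, adjusted p = 1.51e-09), 7.71 for Ifit3 (SE 0.54, adjusted p = 8.13e-14), 7.38 for Bst2 (SE 1.33, adjusted p = 4.21e-05) and 7.39 for Oasl2 (SE 2.48, adjusted p = 0.0261). It was 5.67 for Usp18 (SE 0.63, adjusted p = 4.11e-09), 5.05 for Rsad2 (SE 0.34, adjusted p = 2.77e-15), 3.11 for Rtp4 (SE 0.43, adjusted p = 6.24e-07) and 2.39 for Ifit2 (SE 0.13, adjusted p = 4.69e-18). For Oasl2 and Bst2 untreated groups of 1 to 8 counts enter this difference, so its size and SE depend on how the fit treats low counts.

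For Ifit2 the response at 24 h minus that at 8 h was 0.63 (SE 0.14, adjusted p = 0.000322), and that at 48 h minus that at 24 h was -0.85 (SE 0.14, adjusted p = 3.14e-06). For Mx2 the response at 48 h minus that at 24 h was 1.04 (SE 0.08, adjusted p = 5.41e-13).

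The thapsigargin response at 8 h minus that at 1 h was -2.33 for Mx2 (SE 0.09, adjusted p = 1.62e-24) and -0.92 for Ifit2 (SE 0.14, adjusted p = 8.04e-07). Mx2 was higher than in untreated cells in 5 of 5 libraries at 1 h and lower in 5 of 5 at 8 h.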

How the results depend on the processing

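Counts of the 10 genes called stayed within 1.5 times in 206 alternatives and moved further in 12. With 1 library left out they did so in 252 and 18 fits. Of the single folds, 4 lost and 4 gained their call in the alternatives, and 11 lost and 1 gained it with 1 library left out. Among folds called in either fit 0 changed sign. Some folds called in neither did, such as Isg15 at 1 h of IFN-γ in WT cells, from 0.62 to as low as -3.12. From 8 to 24 h the count of 1 became 4 with DESeq2, 3 with only the groups compared, 2 with a filter of 1 CPM in 2 libraries or with kallisto counts, and 1 to 3 with a library left out. From 24 to 48 h the count of 2 became 6 with DESeq2, 4 with kallisto counts and 2 to 4 with a library left out. A different contrast, of treated cells at 48 and 8 h with no untreated cells (added after seeing the data), called 8. The 1 call between genotypes with thapsigargin became 0 with the 3 conflicting libraries left out or counted as WT, with kallisto counts and with only the groups compared, and was 0 to 1 with a library left out. At 1 h of IFN-γ in WT cells the count of 4 was 1 to 4 with a library left out. Causes were not tested.

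Counts over all genes also moved: 2888 in place of 7092 for IFN-γ in WT cells at 48 h with only the groups compared, 1 to 14 in place of 4 between untreated genotypes, 5 to 36 in place of 9 with IFN-γ, 0 to 150 in place of 84 with thapsigargin, and 1 to 7 in place of 0 for the genotype differences. With 1 library left out, those for IFN-γ in WT cells were 197 to 258 in place of 345 at 1 h and 4720 to 7220 in place of 7092 at 48 h, the lowest without IFN-γ replicate 1. Those for thapsigargin at 1 h were 992 to 1294 in place of 1529 in Nrf2-/- and 674 to 969 in place of 1486 in WT cells. Between genotypes they were 3 to 7 untreated, 8 to 121 with IFN-γ and 2 to 118 with thapsigargin. The genotype difference in the IFN-γ response reached 40 genes at 24 h without untreated WT replicate 1 and 770 at 48 h without IFN-γ WT replicate 2, and that in the thapsigargin response reached 201 at 8 h without thapsigargin WT replicate 1. The pattern list shared 4 of 5 genes with a pseudocount of 5 and 0 of 5 by ranks. No paired analysis was possible because the labels give running library numbers only. Untreated counts near 0 limit the folds of Isg15, Oasl2 and Bst2.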
